A study of Caenorhabditis elegans with 2 samples.

Results

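Of the 2742 peaks called for the tagged Y53G8AR.9 protein in young adult Caenorhabditis elegans, 443 (16.2%, exact 95% interval 14.8 to 17.6) had their summit just upstream of a single protein-coding gene. A peak was counted when its summit lay 0 to 500 bp upstream of the nearest start of a protein-coding transcript in the WBcel235 annotation. It was left out when another coding gene started on the opposite strand within 500 bp of the summit, or when the summit lay 1 to 300 bp past the 3′ end of any coding gene. The rule gives each of these peaks to 1 gene by position, although some summits lie inside that gene, inside another gene or nearer to a noncoding gene. They lay upstream of 421 genes, which is 2.11% of the 19973 protein-coding genes. The position, and no measured signal, chose them.

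Peaks came from chromatin immunoprecipitation and sequencing with an antibody against GFP, from whole worms. They were of strain RW12264, where the Y53G8AR.9 gene on chromosome III carries a TY1, EGFP and 3xFLAG tag placed at its own locus by CRISPR, and all samples carry that tag. Whole young adults of 64 hours, synchronised by starvation of newly hatched larvae, gave 1 group with 2 biological replicates, so there is no comparison between conditions. A whole worm mixes germ line and all somatic tissues, and a peak cannot be given to any of them.

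Y53G8AR.9 is annotated as a protein with a CCCH-type zinc finger, a fold that in many proteins holds RNA and in some is found on DNA or chromatin. In C. elegans many transcripts are trans-spliced soon after they are made, so the annotated start of a gene can lie downstream of the place where transcription begins. Promoters of broadly expressed worm genes are commonly short, nucleosome-poor stretches that are richer in G and C than the A and T rich sequence around them.

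Sequences at the summits are shown for the 12 strongest peaks that were seen in both replicates, lay on a chromosome other than the first and held no annotated untranslated region. Each window runs 50 bases to each side of the summit and is written 5′ to 3′ on the strand of the gene, from the WBcel235 (ce11) reference sequence of RefSeq. Capitals mark 5 short words or their reverse complements. GACGCA and GAGAGA ranked first among all 6-letter words by their excess at the 443 summits over flanks 300 bp away. GCGCAC ranked first among 6-letter words in the 110 strongest peaks, and AACACGC first among 7-letter words in the 25 strongest. TACGGTA was picked out by eye from these windows after the values were known.
rpl-3 (III:3867524-3867624, plus strand): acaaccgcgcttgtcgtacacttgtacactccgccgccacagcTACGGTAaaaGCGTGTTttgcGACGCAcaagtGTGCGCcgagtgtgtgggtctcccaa
rpl-35 (III:7854629-7854729, plus strand): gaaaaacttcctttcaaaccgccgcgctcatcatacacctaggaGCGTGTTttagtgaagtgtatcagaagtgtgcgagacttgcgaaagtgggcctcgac
tasp-1 (III:10759205-10759305, plus strand): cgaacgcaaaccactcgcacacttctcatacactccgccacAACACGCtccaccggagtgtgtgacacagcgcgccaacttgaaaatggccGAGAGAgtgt
cdc-48.1 (II:10563528-10563628, minus strand): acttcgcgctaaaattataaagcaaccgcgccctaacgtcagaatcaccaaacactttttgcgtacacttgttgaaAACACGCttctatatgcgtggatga
cox-5A (III:12905152-12905252, plus strand): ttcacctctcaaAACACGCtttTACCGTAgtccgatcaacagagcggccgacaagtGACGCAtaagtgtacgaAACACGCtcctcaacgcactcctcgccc
eel-1 (IV:3050428-3050528, minus strand): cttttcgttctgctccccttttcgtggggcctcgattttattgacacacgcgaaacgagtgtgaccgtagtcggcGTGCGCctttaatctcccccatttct
rps-1 (III:4475614-4475714, plus strand): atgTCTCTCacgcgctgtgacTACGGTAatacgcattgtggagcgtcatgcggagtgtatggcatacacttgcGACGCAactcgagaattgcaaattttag
mog-4 (II:14561820-14561920, minus strand): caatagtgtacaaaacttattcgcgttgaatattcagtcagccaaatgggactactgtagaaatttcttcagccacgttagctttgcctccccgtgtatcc
ntl-11 (IV:15471578-15471678, minus strand): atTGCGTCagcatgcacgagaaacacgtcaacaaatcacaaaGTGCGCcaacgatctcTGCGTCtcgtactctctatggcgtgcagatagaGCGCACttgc
cnk-1 (III:10270898-10270998, plus strand): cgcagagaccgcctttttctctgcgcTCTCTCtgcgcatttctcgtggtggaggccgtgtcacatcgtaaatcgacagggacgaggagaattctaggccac
wip-1 (III:5018271-5018371, plus strand): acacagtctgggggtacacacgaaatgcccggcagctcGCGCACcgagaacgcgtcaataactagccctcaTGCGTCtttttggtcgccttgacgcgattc
Y22D7AL.10 (III:1619056-1619156, minus strand): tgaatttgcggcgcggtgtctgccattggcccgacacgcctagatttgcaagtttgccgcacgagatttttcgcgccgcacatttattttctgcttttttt

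The same words recurred in the windows of different genes. AACACGC or its complement GCGTGTT stood upstream of rpl-3, rpl-35, tasp-1, cdc-48.1 and cox-5A, the 5 with the highest signal. The cox-5A window held it at 2 places. TACGGTA or TACCGTA stood in the windows of rpl-3, cox-5A and rps-1. The windows of mog-4 and Y22D7AL.10 held none of the 5 words. At least 1 of the 5 words was present in 19 of the 25 strongest peaks and in 197 of all 443 (44.5%). The share was 28.9% over all 2742 peaks, 10.6% in the flanks and 14.1% in windows placed 222 bp, the median distance, upstream of every coding start. The words were chosen on these summits, so the first 2 shares are descriptions.

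Some of these words also stood at some weaker peaks. The 3 windows that follow are the highest, among peaks under the median signal that hold both GAGAGA and CTGCGTC, to pass the same limits on chromosome and untranslated regions, and were chosen after their values were seen. CTGCGTC is a motif known from promoters of ubiquitously expressed worm genes and contains the word TGCGTC, the reverse complement of GACGCA. The signals of these 3 peaks were 61.1 to 66.5. GAGAGA and CTGCGTC stand in their windows by that choice, and AACACGC stands in none of them.
lgg-1 (II:6347879-6347979, minus strand): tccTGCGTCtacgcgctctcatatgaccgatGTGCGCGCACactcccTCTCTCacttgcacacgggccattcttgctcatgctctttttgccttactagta
F21C10.10 (V:9095826-9095926, plus strand): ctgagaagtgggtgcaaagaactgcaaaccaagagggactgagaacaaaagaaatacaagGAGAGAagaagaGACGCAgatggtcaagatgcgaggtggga
phf-14 (V:17871197-17871297, plus strand): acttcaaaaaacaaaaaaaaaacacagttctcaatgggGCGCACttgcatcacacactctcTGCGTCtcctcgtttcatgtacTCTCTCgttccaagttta

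The lgg-1 gene encodes a worm Atg8 protein of autophagosomes, and its window held 2 overlapping copies of GCGCAC on opposite strands between a TGCGTC and a TCTCTC. The phf-14 window also held a GCGCAC.

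The strongest of all 2742 peaks belonged to this class and lay 280 bp upstream of rpl-3, a gene for a large-subunit ribosomal protein. Its signal, the authors' peak value in arbitrary units, was 883 for both replicates together, 496 in replicate 1 and 397 in replicate 2. Upstream of rpl-35, another of the large-subunit genes, the summit lay at 455 bp and the signals were 616, 356 and 258 in the same order. The tasp-1 peak, 52 bp upstream of the gene for a taspase homolog, had signals of 582, 330 and 247. At cdc-48.1, which encodes the AAA ATPase that extracts ubiquitinated proteins from membranes and complexes, the signals were 542, 269 and 264. These 4 were the highest in both replicates, and replicate 1 was the higher at each of them.

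The next peaks by signal lay upstream of genes with varied housekeeping roles. The peak at cox-5A, a subunit of cytochrome c oxidase, had a signal of 403, with 219 in replicate 1 and 194 in replicate 2. That of eel-1, a HECT ubiquitin ligase, also had 403, with 207 and 196. The rps-1 peak, for a small-subunit ribosomal protein, had 396, with 225 and 177, and the mog-4 peak, for a splicing helicase known from the germ-line switch from sperm to oocyte, had 395, with 228 and 168. The ntl-11 gene, for a subunit of the CCR4-NOT deadenylase complex, had a peak of 337 in which replicate 2 was marginally the higher, 164 against 160. Over these 5 genes the replicates kept close values, and replicate 1 was the higher at 4 of them.

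Among the rest of the 25 strongest were peaks of 321 at cnk-1, a scaffold of Ras signalling, and 321 at wip-1, a WH2-domain actin regulator. The mitochondrial chaperonin gene Y22D7AL.10, a homolog of HSP10, had 314, and the opposite strand start of hsp-60, the gene of its partner chaperonin, lay 636 bp from the summit on the other side. Further peaks lay upstream of iff-2, an eIF5A translation factor, with 290, of dnj-13, a DnaJ co-chaperone, with 286, and of pcn-1, the PCNA sliding clamp of DNA replication, with 266. The lin-9 gene of the DREAM repressor complex had 262, and here replicate 2 was the higher, 138 against 108. In the ranks below were sec-61.G of the protein-conducting channel (256), cox-5B (255), rpb-11 of RNA polymerase II (253), serp-1.1 of the endoplasmic reticulum (251), the constitutive Hsp70 hsp-1 (244), rpl-24.2 (242) and tos-1 (240). The mitochondrial tRNA modification gene mtcu-2 (226) and the histone acetyltransferase gene hat-1 (224) closed the 25. All 25 overlapped a thresholded peak in both replicates.

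**Figure D1:**
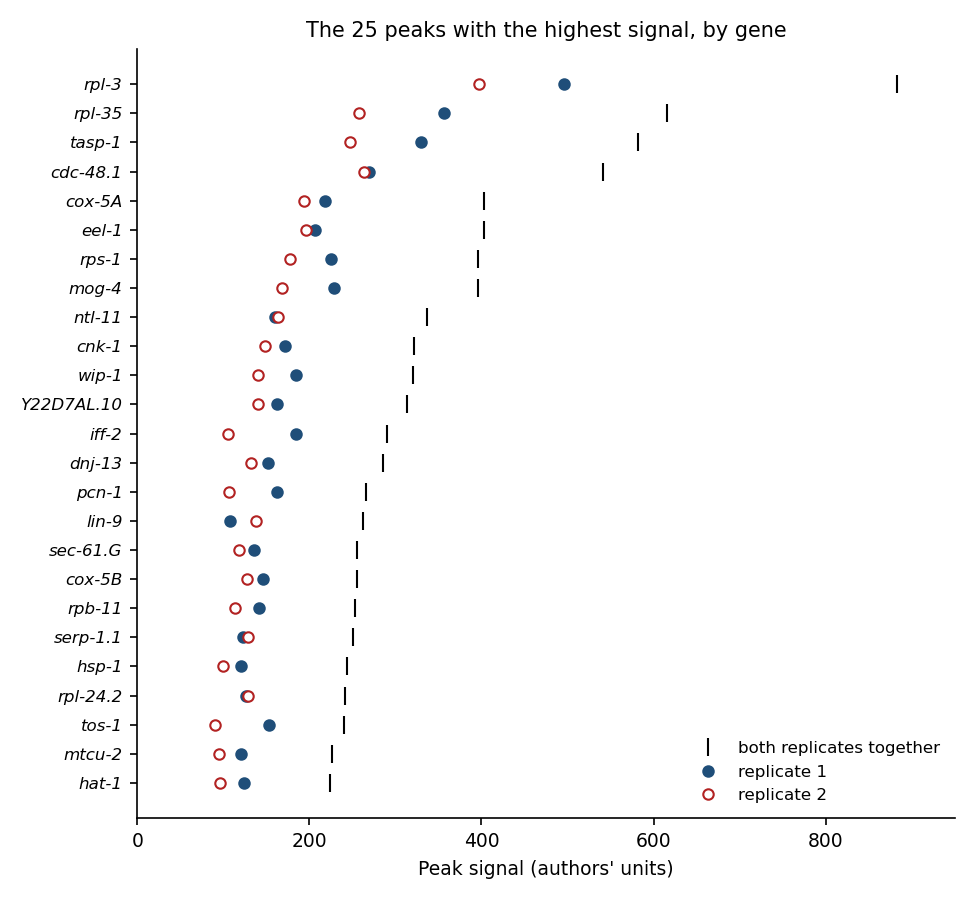
Signal of the 25 strongest peaks upstream of single coding starts, in the authors' arbitrary units on the horizontal axis, with 1 row for each gene. Bars mark the value for both replicates together, filled circles replicate 1 and open circles replicate 2; rpl-3 stands at 883, 496 and 397, and at lin-9 replicate 2 is the higher.

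Over all 443 peaks the signal had a median of 72.1 (quartiles 58.3 and 111), beside 70.4 (56.5 and 97.6) over all 2742. Peaks with coding starts on both strands had a median of 86.9 (201 peaks), those just inside a start 67.0 (373 peaks), and those upstream of a start but also past a gene end 84.0 (207 peaks). The middle of the distribution thus lay near that of the whole list. Upstream of single starts were 8 of the list's 25 strongest peaks (32%, exact interval 14.9 to 53.5). The same held for 23 of its 100 strongest (23%, exact interval 15.2 to 32.5). Both intervals hold 16.2%, the share of the class in the whole list. These differences in signal and share were not tested, since peaks of 1 list are not replicates.

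A thresholded peak of both replicates overlapped 150 of the 443 peaks (33.9%, exact 95% interval 29.5 to 38.5), beside 29.1% of all peaks. A thresholded peak in 1 replicate overlapped 115 (26.0%, beside 28.5%), and 178 (40.2%, beside 42.4%) met none in either replicate's own thresholded list. The shares lie near those of the whole list. The ranked lists, which hold far more peaks, covered 433 of the 443 in replicate 1 and 439 in replicate 2. Support went mostly with signal: the median signal was 135 for peaks met in both replicates, 72.8 for 1 and 59.8 for neither. Of the 110 strongest peaks 103 were met in both, of the next 111 37 were, and of the 2 weaker groups of 111, 3 and 7 were.

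Where both thresholded lists gave a value (150 peaks), signals of replicate 1 and replicate 2 went together, with a Pearson r of 0.86 on the log2 scale and a Spearman rho of 0.782 across peaks. Replicate 1 was the higher at 120 of the 150, by a median ratio of 1.24 (range 0.607 to 2.37). Over all peaks of the list it was the higher at 601 of 798, with a median ratio of 1.21, an r of 0.80 and a rho of 0.732. The correlation in the class describes its 150 peaks, which share their libraries and are not independent. Selecting peaks past a threshold in both lists shapes it. With the ranked lists rho was 0.624 over 429 peaks. The scale of the signal and its correction for depth are not stated, and whether the ratio of the replicates is one of scale was not tested.

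**Figure D2:**
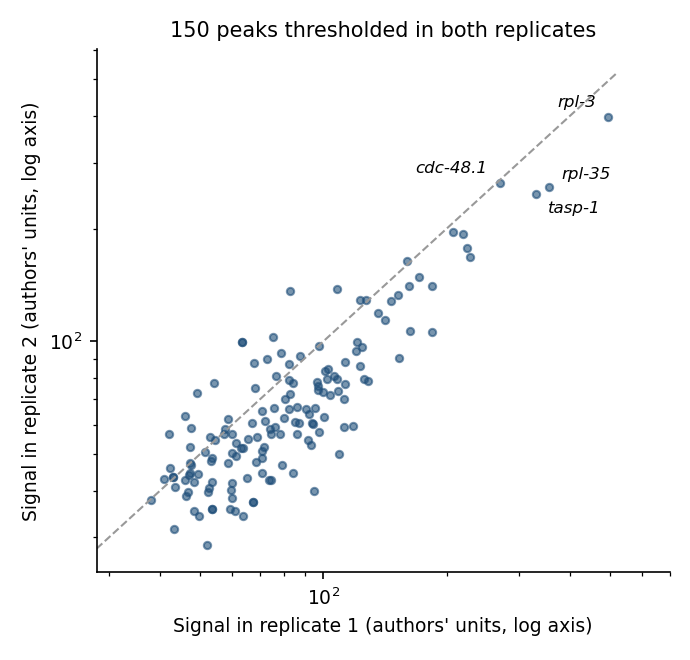
Signal in replicate 1 against replicate 2 for the 150 peaks overlapping a thresholded peak in both, on log axes in the authors' units; the dashed line marks equal values. Most points (120) lie below the line, and rpl-3 is at the upper right with 496 and 397.

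Summits spread over the whole 500 bp allowed by the rule, with a median of 222 bp (quartiles 127 and 337.5). Within 100 bp of the start lay 91 of them (20.5%), and within 300 bp 300 (67.7%). The start had an annotated 5′ untranslated region in 369 cases. Median distance was 210 bp at such starts and 267 bp at the 74 starts without one. Signal changed little with distance, from a median of 66.4 within 100 bp to 81.1 between 301 and 400 bp and 68.1 beyond 400 bp.

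Peaks near the limits of the rule ranged from low to high signals. Summits fell on the start itself, at 0 bp, for skpt-1, an F-box protein gene (signal 128), and for tub-2, a tubby family gene (94.2). At 2 bp came the lysozyme gene ilys-5 (52.6) and parg-1, for the enzyme that removes poly-ADP-ribose (48.6), and at 5 bp the aspartyl protease gene asp-1 (11.2). Just inside 500 bp were C04C11.25 (81.7) and F44A6.5 (54.3) at 495 bp and the 14-3-3 gene ftt-2 (135) at 493 bp, and at 492 bp a peak of the fructose bisphosphatase gene fbp-1 (9.80). Just outside were peaks at F26F4.6 (502 bp, 6.07), maph-1.3 (503 bp, 111) and C33B4.4 (504 bp, 109). No peak of the class lay at the tagged gene itself.

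**Figure D3:**
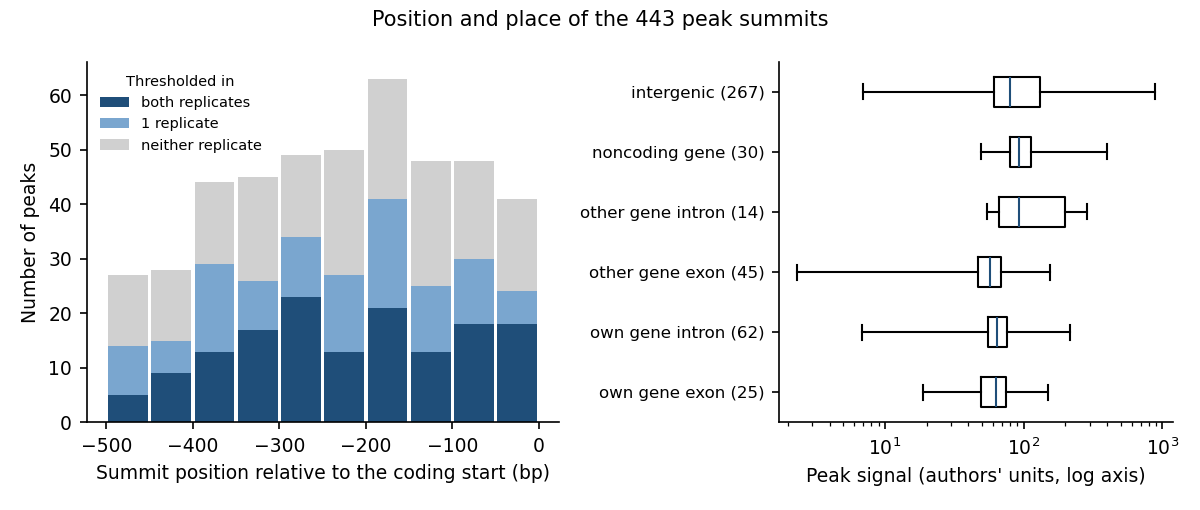
Left, number of the 443 summits in 50 bp steps upstream of the coding start (at 0), split by whether a thresholded peak of both, 1 or neither replicate overlapped. Right, signal in the authors' units on a log axis by what the annotation gives at the summit, with the number of peaks in brackets, boxes for quartiles, a line for the median and whiskers to the extremes; exons of other genes have the lowest median, 57.2.

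Most summits, 267 (60.3%), were intergenic, with a median signal of 79.8. Summits in a noncoding gene (30) and in an intron of another coding gene (14) had medians of 92.9 and 93.3. The 45 summits in an exon of another coding gene had the lowest median, 57.2, and a median GC content of 37.6%, and none of them held GCGCGC. Introns of the gene itself, upstream of an inner start, held 62 summits with a median of 64.0, and its exons 25 with 63.5. A thresholded peak of both replicates met 40.1% of the intergenic summits, 12.9% of those in introns of the gene itself and 17.8% of those in exons of other genes. For summits in noncoding genes the share was 43.3% (13 of 30) and for those in introns of other genes 50% (7 of 14). Intergenic summits thus lay above those in exons and in the gene's own introns, and below these 2 smaller groups, in both measures. The differences were not tested.

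For 168 of the 267 intergenic summits the neighbouring coding gene on the other side ran in the opposite direction (divergent). For 99 it ran the same way. By the rule the coding transcript starts of divergent neighbours lay beyond 500 bp, though the nearest gene boundary was at 174 bp. At 8 divergent gene pairs each gene had a summit of its own within 500 bp. One pair was cox-5B, with a signal of 255 at 31 bp, and the alpha tubulin gene tba-1, with 114 at 474 bp. Another was ntl-11 (337) with Y73F8A.27 (169). The vps-4 gene, for the ATPase that takes ESCRT complexes apart (158), was paired with the stimulatory G protein gene gsa-1 (67.6), and the ataxin-2 gene atx-2 (129) with ecps-1 (59.8). In each of these 4 pairs the gene named first had the higher signal. R107.5 (179) was paired with the CLASP gene cls-2 (67.7), W03C9.5 (124) with mex-1 (105), and F56C9.10 (74.8) with the PP1 phosphatase gene gsp-2 (49.3). At the last pair, ZK632.4 (49.0) and gtap-2 (23.7), the peaks overlap.

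A noncoding gene lay within 250 bp of 69 summits (15.6%, beside 19.3% of all peaks). It was an ncRNA of unspecified class at 48, a tRNA at 11 (2.48%, beside 5.07%), a snoRNA at 10 and a snRNA at 4. At 66 summits a noncoding gene was nearer than the coding start, among them rps-1, whose summit lies in the ncRNA F56F3.10, dnj-13 (F54D5.22) and puf-9 (W06B11.7). For these the assignment to the coding gene rests on the rule alone.

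By chromosome, the class held 73 peaks on I, 74 on II, 82 on III, 84 on IV, 85 on V and 45 on X. This was 5.95 per megabase on III, where 2.92% of coding genes were hit, and 2.54 on X, where 1.61% were hit. On V the density was 4.06 and the share of genes 1.62%. Chromosome III held 18.5% of the class and 18.1% of all peaks, V 19.2% and 17.3%, and X 10.2% and 12.7%. The share on III was thus near that of the whole list.

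Grouped by function, 96 of the 421 genes (22.8%) were in 1 of 32 lists of gene names. The share of all coding genes that is in these lists was not computed, so the count is read as neither an excess nor a deficit. Large-subunit genes of the cytosolic ribosome had the highest share of the 32 lists. The class held 10 of 50 genes of the large subunit (20%) and 4 of 31 of the small subunit (12.9%), beside 2.11% of all coding genes. Median signal was 133 over these 14 peaks, beside 72.1 over the class, and 11 of the 14 met a thresholded peak of both replicates. Their summits lay far from the starts, at a median of 284 bp (range 154 to 455). With an upstream limit of 250 bp only 2 of the 14 genes remained in the class, and with a gene-end zone of 500 bp 8 did. Peaks of any class lay within 500 bp of a start at 29 of the 50 and 19 of the 31 genes. Over all 19973 coding genes they did so at 1299. The high share of ribosomal genes thus held for the whole list and not for this class alone.

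Besides rpl-3, rpl-35 and rps-1, the ribosomal genes included rps-28, with a signal of 176, in which replicate 2 was the higher, 103 against 75.5. The rps-24 peak had 142, with 75.8 in replicate 1 and 66.3 in replicate 2. The lowest of them, rps-11 (53.6), rpl-7 (72.1) and rpl-25.2 (82.3), met a thresholded peak of replicate 1 alone. For the mitochondrial ribosome 1 gene of 70, mrpl-28, had a peak of the class (136), and none of 32 aminoacyl-tRNA synthetase genes did, counts near the 2.11% over all coding genes. Peaks of any class lay within 500 bp of a start at 7 and 4 genes of these lists.

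Splicing genes followed, with 9 of 58 (15.5%, beside 2.11% of all coding genes) and a median signal of 135. Peaks of any class lay within 500 bp of a start at 15 of the 58, beside 1299 of all 19973 coding genes. After mog-4 came smu-1 (176, with 96.8 and 75.9 in replicates 1 and 2), the SR protein gene rsp-2 (175, with 108 and 73.6) and the Sm protein gene snr-4 (159, with 72.7 and 89.7). The core spliceosome gene prp-8 had 68.3 and was in neither replicate's thresholded list. At snr-4 the higher value was in replicate 2, and at mog-4, smu-1 and rsp-2 in replicate 1.

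Autophagy and vacuolar sorting genes numbered 10 of 70 (14.3%, beside 2.11% of all coding genes), with a median signal of 75.3 over 11 peaks. Peaks of any class lay within 500 bp of a start at 15 of the 70. The highest were vps-4 (158, with 91.0 and 66.0), the epg-7 scaffold of selective autophagy (126, with 72.3 and 61.5) and the ESCRT gene vps-60 (125, with 67.0 and 60.8). The list also held both Atg8 genes, lgg-2 with 117 and lgg-1 with 66.5, the membrane protein gene atg-9 (109), the beclin gene bec-1 (75.3) and hlh-30 (69.1), the worm TFEB that controls autophagy and lysosome genes. Signals thus ran from the upper to the lower part of the class.

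The list of germ-line RNA regulators, which also holds a yolk receptor gene, gave 7 of 61 (11.5%), with a median of 66.7. Of the 7 peaks 1, at the Pumilio family gene puf-9 (157, with 83.1 and 72.5), was met in both replicates. The next were mex-1, itself a CCCH protein of early embryos (105, met in replicate 2 alone with 63.0), and the yolk receptor gene rme-2 (82.5, met in neither). Glycolysis and TCA cycle genes gave 5 of 48 (10.4%), led by pck-2, which encodes phosphoenolpyruvate carboxykinase (218, with 83.0 in replicate 1 and 137 in replicate 2), before the glyceraldehyde-3-phosphate dehydrogenase gene gpd-3 (67.9) and the pyruvate carboxylase gene pyc-1 (64.0). Translation factors gave 4 of 42, with eef-1A.2 (86.5) next to iff-2 and then eif-3.B (67.7). The shares of the class stand beside 2.11% of all coding genes. Peaks of any class lay within 500 bp of a start at 17 of 61, 15 of 48 and 12 of 42 genes of these lists.

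Genes of protein folding and traffic had median signals above that of the class. Chaperones gave 6 of 70 with a median of 142, including hsp-3, an Hsp70 of the endoplasmic reticulum (183, with 112 and 70.0). The secretory list gave 5 of 66 with a median of 114, of which sec-24.1 of the COPII coat had 114 (73.6 and 42.7). In the ubiquitin list 4 of 61 had a peak, with ubc-3 (86.1) and 3 peaks at the polyubiquitin gene ubq-1 (108, 39.2 and 20.8). The median over the 6 peaks of this list was 62.7, below the 72.1 of the class. The chromatin list gave 5 of 87, where the E2F gene efl-1 had 94.5 and swsn-3 of the SWI/SNF complex 88.9, besides lin-9. These counts stand beside 2.11% of all coding genes. Peaks of any class lay within 500 bp of a start at 22 of 70 chaperone, 19 of 66 secretory, 9 of 61 ubiquitin and 16 of 87 chromatin genes.

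The other lists with 3 genes or more had shares of 4.23% to 5.63%, beside 2.11% of all coding genes. Replication and cell cycle gave 3 of 59, with mcm-2 (170) and cyb-3 (55.7) after pcn-1. Respiratory chain genes numbered 3 of 71, with atp-4 (57.2) below both cox genes. The RNA polymerase II list held 3 of 57, with taf-4 (72.1) and taf-3 (45.2). Cytoskeletal genes were 4 of 71, with tba-1, act-2 (102) and the cofilin gene unc-60 (65.2) on top.

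Several large families had few peaks of the class, to be read beside the 2.11% of all coding genes. They lay at 1 of 1287 chemoreceptor genes (srh-70), 1 of 140 neuropeptide genes, 1 of 179 collagens and 2 of 269 nuclear hormone receptors. Vitellogenin and intestine genes gave 1 of 43 (2.33%). The class held none of 87 homeobox genes, 412 F-box, BTB and MATH genes, 36 muscle structure genes, 87 sperm genes or 51 small RNA pathway genes, though peaks of any class lay within 500 bp of a start at 1, 4, 0, 2 and 9 of them. For the smaller of these lists a count of 0 is near what the share over all genes gives. Levels of expression were not measured in these samples.

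GC content at the summits was above that around them. This window had a median of 47.5% (quartiles 40.6 and 53.5), the flanks 34.7%, all peaks 44.6%, and windows 222 bp upstream of all coding starts 33.7%. The rise was narrow, with a mean of 49.5% in a window of 21 bases at the summit itself. At the same place peaks with starts on both strands had 52.6% and those just inside a start 45.7%. GC content was 50.5% in peaks met in both replicates, 48.5% in 1 and 43.6% in neither.

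**Figure D4:**
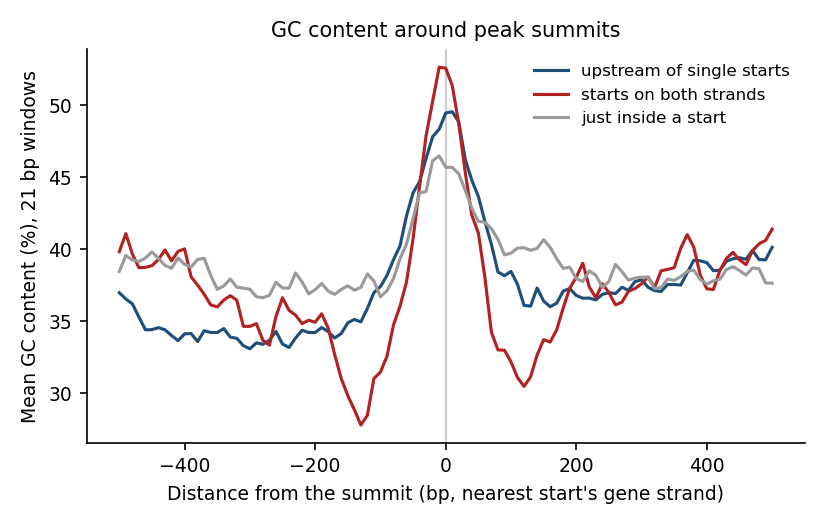
Mean GC content in 21 bp windows against distance from the summit, in the direction of the nearest gene, for summits upstream of single starts, between starts on both strands, and just inside a start. All 3 curves are highest within 10 bp of the summit, and at the summit itself they stand at 49.5%, 52.6% and 45.7%.

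Specific words rose above the flanks. GAGAGA stood within 50 bp of 91 summits (20.5%, exact 95% interval 16.9 to 24.6), beside 5.42% of flanks, 13.9% of all peaks and 7.66% of all coding starts. CTGCGTC stood at 48 (10.8%), beside 1.02%, 5.22% and 1.59%. The alternating word GCGCGC stood at 49 (11.1%), beside 0.790%, 5.76% and 1.45%. Peaks with starts on both strands had 14.9% with GAGAGA, 6.97% with CTGCGTC and 11.4% with GCGCGC. Those just inside a start had 9.12%, 2.14% and 3.49%. The share with GCGCGC was thus close to that of peaks with starts on both strands. All searches covered both strands. With windows of 25 and 100 bp to each side the shares of the 3 words, in the order named, were 11.1% and 34.8%, 5.87% and 15.8%, and 6.77% and 15.8%. GAGAGA and CTGCGTC shared 23 windows, GAGAGA and GCGCGC 9, and CTGCGTC and GCGCGC 7, while 291 windows held none of the 3.

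Within 25 bp of the summit lay 30 of the 48 CTGCGTC matches, 39 of the 57 GCGCGC matches and 72 of the 135 GAGAGA matches. CTGCGTC was on the gene's strand in 29 windows and on the other in 19. The words TATAAA and TTTTCAG were less common at the summit than in the flanks. TATAAA, the TATA box, stood at 5.42% of summits and 10.6% of flanks, beside 12.9% of windows 222 bp upstream of all coding starts. TTTTCAG, the acceptor of splicing and trans-splicing, stood at 4.97% and 14%, beside 9.45% of those windows. The flanks lay 300 bp away, and 300 of the 443 summits lay within 300 bp of the start. Many flanks on the gene's side thus lay at or past the start. Both words are rich in A and T, and GC content was higher at the summit. Whether GC content or the place of the flanks accounts for the lower shares was not tested.

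The words differed in how they followed signal. The 443 peaks were cut by signal into the 110 strongest and 3 further groups of 111 each. GAGAGA stood at 19.1% of the 110 strongest and 23.4% of the 111 weakest, and CTGCGTC at 12.7% and 9.01%. By contrast GCGCAC stood at 28.2% of the 110 strongest (31 peaks) and at 14.4%, 7.21% and 7.21% of the further groups in falling order of signal. GCGCGC stood at 17.3%, 19.8%, 4.50% and 2.70% of the 4 groups. AAGTGCG, the first 7-letter word of the 110 strongest, stood at 19.1% of them and at 4.50%, 2.70% and 3.6% of the rest. These words were chosen on the strongest peaks or looked at with the signals known, so their high share there is a description.

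AACACGC stood at 6 of the 25 strongest peaks (24.0%), at 10.9% of the 110 strongest, and at 1.80%, 2.70% and 1.80% of the others. This word was chosen on those 25 peaks, which are part of the 110, so both of these high shares are descriptions. Among the 377 other peaks of the list with a signal at least as high as the lowest of those 110, 113, its share was 2.92%. For GCGCAC that share was 11.1%, for AAGTGCG 4.51% and for TACGGTA 6.37%, the last beside 9.09% of the 110 strongest. Over all coding starts AACACGC stood at 0.775% and TACGGTA at 1.70% of windows. The words were chosen on peaks of this class, which favours it in these comparisons. Whether the words differ between the classes of peak was not tested.

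**Figure D5:**
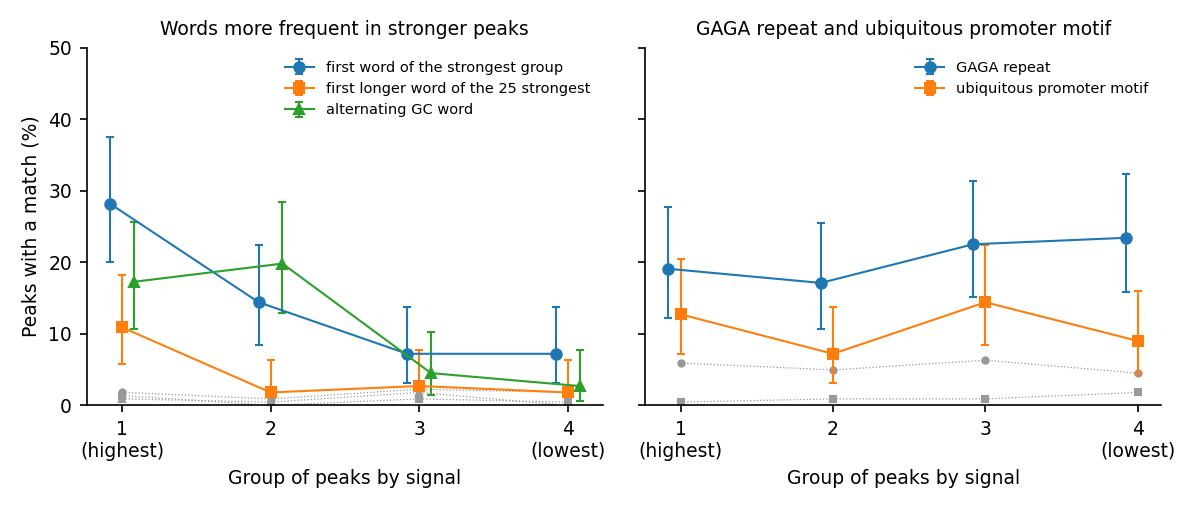
Share of peaks with a match within 50 bp of the summit, in 4 groups of the 443 peaks by signal (110 strongest, then 111 each), with exact 95% intervals; grey dotted lines give the flanks. Left, GCGCAC (first word of the 110 strongest), AACACGC (first longer word of the 25 strongest) and GCGCGC (alternating GC word). They stand at 28.2%, 10.9% and 17.3% of the strongest group. Right, GAGAGA and CTGCGTC, at 19.1% and 12.7% of that group. The intervals do not cover the choice of GCGCAC and AACACGC on the strongest peaks.

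Most peaks, 374, were 320 bp wide, with a median signal of 67.0, and 23.5% of them were met in both replicates. The 65 narrower peaks had a median of 186, and 89.2% were met in both. Narrower peaks were thus mostly strong ones, though their lowest signal was 40.1. Several genes had more than 1 peak, 16 with 2 and 3 with 3, which were ubq-1, the C2H2 zinc finger gene gldi-8 (96.4, 66.4 and 62.9) and Y43F8B.2 (63.5, 40.7 and 25.3).

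The lowest signals were 2.34 at the Sm-like gene lsm-8, 2.85 at swp-1 and 4.73 at C47B2.2. All 18 peaks with a signal under 20 overlapped a stronger peak of the list, for these 3 with signals of 64.6, 87.7 and 68.8. Where a replicate value exists for such a peak it belongs to the interval it shares with its stronger neighbour. Another gene of this kind was ubc-6, with a signal of 7.93 beside a peak of 157.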

How the data were processed

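The deposited files are peak lists on ce11. Per the deposited text descriptions, the lists were derived from the filtered alignments of both replicates and a further alignment, and the thresholded lists also from an input that is not described. For the aligner and the peak caller, names and versions were not given in the sources used here, and the control experiment that the labels name was not analysed here. The signal of a peak is the value of the authors' peak caller, of unstated scale. The score is the authors' integer form of the irreproducible discovery rate and was at least 830 throughout the conservative list. No read counts were used, so depth is unknown.

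Summits were placed on WBcel235 (Ensembl release 115; 29304 coding transcript starts). Replicate numbers only name the samples. Replicate values are the deposited signal of the strongest overlapping peak (1 bp or more). Windows of 50 bp to each side of the summit were searched on both strands for 22 motifs and all 2080 6-letter words. Shares carry exact 95% Clopper-Pearson bounds, which cover counting error alone and take peaks as independent. No test was made, since 1 group of 2 replicates allows none and peaks are not replicates. The rule and word count were tested on simulated positions and sequences.

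Genes named are the 25 strongest peaks, the 3 strongest of each list with 3 genes or more, the 3 weakest, those at the limits of the rule and those with 3 peaks; others were chosen after their values were seen. The members, lists and motifs were chosen with earlier results of these data known. Python 3.11.15, numpy 2.4.6, pandas 2.3.3, scipy 1.17.1 and matplotlib 3.10.9 were used.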

Additional observations from a re-analysis of the deposited data

How the results depend on the processing

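Other choices moved the size of the class, from 229 to 650 peaks, and in part its distance, GC excess and share met in both replicates. The main values were 443 peaks, 421 genes, a median of 222 bp upstream, a median signal rank at the 52.6th percentile of the list, a GC excess over the flanks of 12.9 percentage points, and 33.9% of peaks met in both replicates. With only the peaks at or above the median signal these were 229, 229, 246 bp, 61.1, 15.8 and 61.6%. The percentile was taken anew within each alternative's own list, here of 1371 peaks. Percentiles from other lists than the main one are therefore not comparable with 52.6. With each replicate's own thresholded list in place of the joint one, the class held 229 to 234 peaks at 226 to 230 genes, at 230 to 235 bp, with percentiles of 60.6 to 61.6 and GC excesses of 14.9 to 15.8; overlap between replicates was not computed there. An upstream limit of 250 bp gave 252 peaks, 241 genes, 137 bp, 48.1 and 11.9, and one of 1000 bp gave 616 peaks, 307.5 bp and 51.5. Without the gene-end exclusion the values were 650 peaks, 210 bp, 57.8 and 10.9, and with a gene-end zone of 500 bp the percentile was 50.9 and the GC excess 13.9. An opposite-start zone of 1000 bp gave a percentile of 48.1, so whether the class sits above or below the middle of the list depends on the limits. The other series-wide list gave 233 bp, 53.9 and 13.9, and keeping the strongest of overlapping peaks 226 bp and 13.9. Windows of 25 and 100 bp to each side gave GC excesses of 13.7 and 8.46, and flanks 500 bp away 9.90. The same windows gave 11.1% and 34.8% of peaks with GAGAGA, beside 20.5%. For peaks at or above the median signal the share with GCGCGC was 17.9%, beside 11.1%. The rank correlation of the replicates, 0.782, was 0.624 with the ranked lists. Intergenic peaks alone, an alternative chosen after seeing the data, gave 267 peaks, 262 genes, 216 bp, 61.2, 13.9 and 40.1%. The cause of these moves was not tested beyond the construction of each alternative. No paired analysis was possible because there is 1 group.

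Signals rank peaks within a list only, depth is unknown, and the position rule cannot show which gene a peak acts on.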

Other observations

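Some motifs known from other promoters were found at few summits. The E2F-type word TTTCCCGC stood at 11 of 443 (2.48%), beside 0.226% of flanks, 1.17% of all peaks and 0.625% of windows upstream of all coding starts. The cAMP response element TGACGTCA stood at 7 (1.58%), beside 0.339%, 1.02% and 0.676%. Peaks with starts on both strands had 2.49% with TTTCCCGC and 0.995% with TGACGTCA. The CCAAT box CCAAT stood at 69 (15.6%), beside 18.2% of flanks and 19.7% of all peaks. Of the 421 genes, 144 (34.2%) are named by their sequence alone and were described by position and signal only.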
